A study of Mus musculus with 16 samples.

Results

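Mouse embryonic stem (ES) cells that lived on Q418R CTCF, a form with 1 glutamine of the DNA-binding domain replaced by arginine, were compared with cells that lived on wild-type (WT) CTCF, both in medium with leukemia inhibitory factor (LIF). The comparison took 4 of the 16 libraries of the series, 2 of each line, and the genes whose normalised count averaged at least 10 over these 4 libraries, which were 17063 of the 55291 genes in the table. Every line derived from E14Tg2a (strain 129/Ola), grown on gelatin without feeder cells, and in every library, WT included, the endogenous CTCF protein was degraded through an auxin-inducible degron while a doxycycline-inducible transgene supplied WT, R342C, K365T or Q418R CTCF. The auxin was indole-3-acetic acid at 500 µM and doxycycline was given at 1 µg/ml to each of them, for 2 days by the protocol. The LIF medium also held serum, 3 µM CHIR99021, a GSK3 inhibitor, and 1 µM PD0325901, a MEK inhibitor. Cells called no LIF here spent 3 days without these 3 additions. Each genotype was 1 line, so genotype and line cannot be told apart, and nothing in the labels says that the 2 libraries of a group came from separate cultures, so the p-values measure only the spread between these libraries.

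CTCF binds DNA through a row of zinc fingers, halts cohesin as it extrudes chromatin loops, and so sets the borders of many domains within which enhancers and promoters meet. It also reads the methylation of imprinted loci, binding the unmethylated copy, and it selects promoters in the clustered protocadherins and bounds domains in the Hox clusters. In ES cells, naive pluripotency is held by LIF signalling through STAT3 together with active Wnt signalling and low MEK activity, and genes of the germ line are kept silent largely by promoter CpG methylation and by repressors such as PRC1.6.

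The 4 libraries held 20148246 to 31935381 reads. The 7 ES cell markers summed to 89292 to 98611 normalised counts in WT and 96951 to 98852 in Q418R. Of 8 fibroblast markers 5 were under 5 in all 4 libraries, 2 of them at 0, and 3 passed the filter. The 8 summed to 1162 to 1226 in WT and 994 to 1028 in Q418R. Most of this was Pdgfrb, at 1044 and 1055 in WT and 778 and 848 in Q418R. Endoderm markers summed to 507 to 575 in WT and 484 to 500 in Q418R, mesoderm markers to 187 and to 259 to 361, neural markers to 589 to 1043 and to 757 to 1065. In such bulk RNA, fewer cells of a type and less RNA per cell cannot be told apart. Ctcf itself (chr8:105636568-105682922, mm10), whose reads may come from the transgene or from the tagged gene, was at 6956 and 5853 normalised counts in WT and 8375 and 7369 in Q418R. Both Q418R libraries were higher, but the log2 difference of 0.30 ± 0.15 (SE) missed the threshold (limma, adjusted p = 0.319).

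Q418R cells differed from WT cells at 785 genes, 4.6% of those tested (limma, adjusted p under 0.05): 344 were higher (2.02%) and 441 lower (2.58%). The rises were larger than the falls, with a median log2 difference of 1.17 among higher genes and -0.77 among lower genes, against -0.01 over all genes tested. At least 2-fold differences made up 66.0% of the higher and 32.4% of the lower genes. On the authors' TPM values 354 genes were called, 225 higher and 129 lower, so that the higher share went from 43.8% to 63.6%. All 785 genes had both Q418R libraries outside the range of the WT libraries, while over all genes tested 25.2% had both Q418R libraries above and 27.6% below. The number of calls rested on all 4 libraries: it was 166 without Q418R replicate 1, 254 without Q418R replicate 2, 177 without WT replicate 1 and 250 without WT replicate 2.

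The largest rises were in genes of low to moderate level in WT. Epdr1 (chr13:19591706-19619927), which encodes a lysosomal lipid-binding protein, stood at 21.0 and 32.4 normalised counts in WT and at 217 and 352 in Q418R. Cpe (chr8:64592542-64693054), the carboxypeptidase that trims prohormones, stood at 49.1 and 54.0 in WT and at 360 and 579 in Q418R. Every Q418R value of these genes was several times every WT value, with log2 differences of 3.22 ± 0.31 (SE, adjusted p = 0.000157) for Epdr1 and 3.05 ± 0.30 (adjusted p = 0.000157) for Cpe by limma. Both also lay above the R342C and K365T lines in LIF, by 2.66 (adjusted p = 0.000243) and 1.90 (adjusted p = 0.00227) against the mean of those lines. Gad1 (chr2:70553072-70602014), the enzyme that makes the neurotransmitter GABA, was at 138 and 177 in WT and 778 and 615 in Q418R, a log2 difference of 2.12 ± 0.38 (adjusted p = 0.00701, 0.092 at most when 1 library was left out). Its levels in the other mutant lines lay below WT, at 108 and 74.5 in R342C and 18.8 and 39.0 in K365T, and its difference from their mean was 3.68 (adjusted p = 0.000198).

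The other large rises held cell-surface and matrix genes, an axonal motor and cell-death and antiviral genes. Mmp2, a secreted gelatinase, went from 49.1 and 41.1 to 223 and 207, and Ddr2, a collagen receptor, from 128 and 304 to 895 and 741. For Ddr2 the WT libraries lay further apart than the Q418R libraries, and its call (log2 difference 2.02, adjusted p = 0.0384) was kept in 1 of the 4 fits that left out a library. Kif1a, a kinesin of axonal transport, rose by 2.21 and Slc13a5, a citrate transporter, by 1.94. The call of Slc13a5 was likewise kept in 1 of those 4 fits. Casp8, the initiator caspase of death receptors, rose by 1.87, but no fit with a library left out kept its call. Fam111a, a protease that restricts viruses, rose by 1.90 and Igsf10 by 2.60. Zfp869, a zinc finger gene, and Pwwp3b rose by 1.99 and 1.83. In K365T against the same WT libraries, the log2 differences of Mmp2, Ddr2, Kif1a, Fam111a and Igsf10 were 1.81, 2.83, 1.70, 2.04 and 2.89, and in R342C 1.09, 0.54, -0.15, 0.28 and 0.23.

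**Figure D1:**
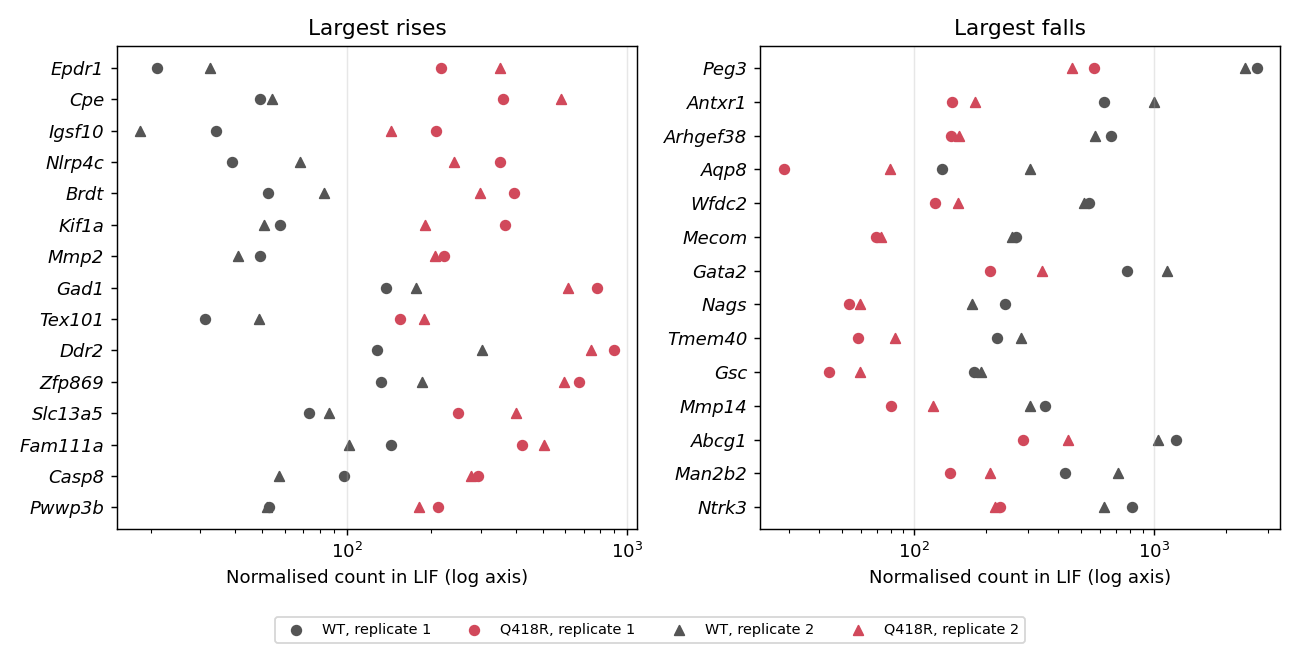
Normalised counts in LIF (log axis) of the genes with the largest rises (left) and falls (right) that were called and averaged at least 100, WT in grey and Q418R in red, 1 point per library. In each gene shown both Q418R points lie on 1 side of both WT points, from Epdr1 (21.0 and 32.4 against 217 and 352) to Ntrk3 (811 and 618 against 228 and 217).

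Of the 28 gene lists, that of the germ line held the most rises. Of its 34 genes 30 were tested, 4 were higher (2.02% over all genes) and none lower, the median log2 difference was 0.55 against -0.01 over all genes, and 19 had both Q418R libraries above both WT libraries, as had 25.2% of all genes. Brdt (chr5:107331159-107387058), the testis bromodomain protein of the BET family, stood at 52.2 and 83.2 in WT and 394 and 299 in Q418R. Tex101 (chr7:24668007-24676675), a germ cell surface protein, stood at 31.2 and 48.6 in WT and 155 and 188 in Q418R. In both genes the Q418R libraries lay well above the WT libraries, with log2 differences of 2.31 ± 0.31 (limma, adjusted p = 0.00111) and 2.02 ± 0.27 (adjusted p = 0.00111). Tex15, which is needed for meiotic recombination and for transposon silencing in male germ cells, was already at 818 and 784 in WT and reached 1900 and 1666 in Q418R (1.15). Meioc, which holds germ cells in meiotic prophase, went from 378 and 385 to 620 and 934 (0.99). Among 15 oocyte and maternal-effect genes 1 rose: Nlrp4c, of the NLRP family of the oocyte, went from 38.9 and 68.1 to 351 and 242 (2.41, adjusted p = 0.00182). Of 26 Rhox genes, the X-linked homeobox cluster of the reproductive tract, 6 passed the filter, and 1 of these rose, Rhox2a, from 2.34 and 7.56 to 31.0 and 19.9. Rhox2a passed the filter only through its Q418R libraries, missed the threshold with edgeR (adjusted p = 0.0525) and kept its call in 1 of the 4 fits that left out a library, as did Meioc. Brdt, Tex101, Tex15 and Nlrp4c kept theirs in all 4. Against the same WT libraries, the log2 differences of Brdt, Tex101, Tex15, Nlrp4c and Rhox2a were 2.54, 0.89, 0.85, 2.93 and 2.39 in K365T and 1.37, 1.12, 0.89, -0.46 and -0.86 in R342C. Against the mean of those lines the germline list had a median of 0.05. Of 24 DNA methylation and germline repressor genes none was called lower and 2 rose, Mbd1, which binds methylated DNA, by 0.47 and Rnf2, a Polycomb ubiquitin ligase, by 0.41, and neither passed on TPM.

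The stretches upstream of the RefSeq start sites of 3 of these genes are shown because CpG methylation of such promoters is a known route of germline silencing. They are the 250 bases before the RefSeq start site (GRCm38.p6), 5′ to 3′ on the gene's strand, with CpG dinucleotides in capitals, at chr7:24672051-24672300 (minus strand), chr11:102665335-102665584 (plus strand) and chr7:6044911-6045160 (plus strand).
Tex101: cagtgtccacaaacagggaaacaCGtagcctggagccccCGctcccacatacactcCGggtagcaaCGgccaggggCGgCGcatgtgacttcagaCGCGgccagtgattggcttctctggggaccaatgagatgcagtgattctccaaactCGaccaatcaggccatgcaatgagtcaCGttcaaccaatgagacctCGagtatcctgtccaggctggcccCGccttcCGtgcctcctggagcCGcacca
Meioc: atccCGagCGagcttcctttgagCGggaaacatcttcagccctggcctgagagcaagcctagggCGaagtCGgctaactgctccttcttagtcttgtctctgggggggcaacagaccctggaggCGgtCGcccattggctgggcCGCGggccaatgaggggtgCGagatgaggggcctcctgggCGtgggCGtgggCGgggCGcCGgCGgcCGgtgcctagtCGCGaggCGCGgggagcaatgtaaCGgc
Nlrp4c: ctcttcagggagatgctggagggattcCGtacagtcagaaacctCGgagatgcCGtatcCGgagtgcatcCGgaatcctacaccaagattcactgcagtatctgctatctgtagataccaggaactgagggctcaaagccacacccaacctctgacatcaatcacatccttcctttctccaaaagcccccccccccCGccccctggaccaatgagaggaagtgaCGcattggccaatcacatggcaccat
The stretches of Tex101 and Meioc lie within the gene spans of GENCODE M21, whose starts differ from those of RefSeq. The 3 stretches hold 14, 22 and 7 CpG dinucleotides, against a median of 15 over the 11610 tested genes with an entry. Higher genes outside the shifted regions described below had a median of 13 and lower genes one of 12. No methylation or binding data were used here.

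Peg3 (chr7:6703892-6730431), a paternally expressed zinc finger gene, had the largest fall among the genes named for their size. It stood at 2697 and 2417 normalised counts in WT and at 565 and 457 in Q418R, a log2 difference of -2.32 ± 0.25 (limma, adjusted p = 0.000262). Both Q418R libraries lay far below both WT libraries. Its neighbours in the same imprinted domain gave no call: Usp29, which starts beside Peg3 on the opposite strand, was at 195 and 266 in WT and 160 and 312 in Q418R (-0.03, adjusted p = 0.985), Zim3 at 49.1 and 61.6 against 50.0 and 75.7, and Zfp264 at 593 and 550 against 553 and 591. These 3 genes overlapped between the lines. Against the same WT libraries Peg3 differed by -2.94 in R342C and -2.50 in K365T, and the Q418R value differed from the mean of those lines by 0.40 (adjusted p = 0.393). The 146 bases between both genes, at chr7:6730432-6730577 (GRCm38.p6, minus strand, the strand of Peg3), lie in no GENCODE M21 exon and are shown because Peg3 fell on 1 side of them while Usp29 did not pass the test on the other, with CpG in capitals.
Peg3 to Usp29: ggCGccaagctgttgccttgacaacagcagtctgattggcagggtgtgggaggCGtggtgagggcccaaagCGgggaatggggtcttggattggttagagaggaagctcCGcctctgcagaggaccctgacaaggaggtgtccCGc
The stretch holds 5 CpG dinucleotides.

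Over the 36 tested imprinted genes 4 were lower and 1 higher (2.58% and 2.02% over all genes), with a median of -0.07. Nap1l5 fell from 59.2 and 52.9 to 25.02 and 19.9 (-1.19) within the chromosome 6 region described below. Plagl1, a growth-restraining zinc finger gene, fell from 3111 and 3753 to 1921 and 2292 (-0.70). Igf2r, the receptor that clears IGF2, rose from 3503 and 4814 to 5746 and 6690 (0.59). Plagl1 lost its call on TPM (adjusted p = 0.162) and with edgeR (0.053), Plagl1 and Nap1l5 lost theirs whichever library was left out, and Igf2r kept its call in 1 of those 4 fits. On TPM 2 imprinted genes were lower and 1 higher, and the list's median was 0.01.

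Single genes were called lower in the lists of formative, mesoderm and trophectoderm genes, whose medians were -0.34, -0.32 and -0.37. Both Q418R libraries lay below both WT libraries in 8 of 16, 2 of 9 and 6 of 10 genes (27.6% over all genes). They lay above in 2, 2 and 0 (25.2% over all genes). Of the tested genes, 1 formative and 2 trophectoderm genes lie in the shifted regions described below. Otx2 (chr14:48657677-48673819), a transcription factor of the step from naive to formative pluripotency, was the 1 gene called of 16 formative and primed genes, at 77.9 and 75.6 in WT and 23.8 and 27.9 in Q418R (log2 difference -1.44 ± 0.31, adjusted p = 0.0183). Gsc, the homeobox gene of the organizer, fell from 178 and 190 to 44.1 and 59.7 (-1.77), and Gata2, a factor of blood and trophectoderm, from 778 and 1136 to 207 and 343 (-1.80). They were 1 of 9 tested mesoderm and 1 of 10 tested trophectoderm genes. Gata2 lies in the chromosome 6 region described below. Mecom, a zinc finger factor of blood stem cells, fell by 1.82 and Ntrk3, the neurotrophin-3 receptor, by 1.65. The calls of Otx2, Gsc, Mecom and Ntrk3 were lost whichever of the 4 libraries was left out, although each kept its sign. That of Gata2 was kept in 2 of those 4 fits. Of 27 tested Hox genes 2 fell (2.58% over all genes) and none rose. Hoxd4 went from 17.9 and 20.5 to 3.57 and 5.97 (-1.42) and Hoxd13 from 81.0 and 69.2 to 39.3 and 23.9 (-1.18). Hoxd4 passed the filter only through its WT libraries. Hoxd4 lost its call whichever library was left out and with edgeR (adjusted p = 0.0673), and Hoxd13 kept its call in 1 of those 4 fits. With the 4 libraries alone neither passed (adjusted p = 0.0539 and 0.0553). The Hox median was -0.57, and 19 of the 27 had both Q418R libraries below both WT libraries, as had 27.6% of all genes. Of these 27 genes, 9 lie in the chromosome 6 region described below. Hoxd13 also lay below the mean of R342C and K365T, by 1.43 on the log2 scale (limma, adjusted p = 0.00601).

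Further large falls were in transport, metabolism and secretion. Of these genes, Antxr1 and Tmem40 lie in the chromosome 6 region and Man2b2 in the chromosome 5 region described below, where most genes were lower. Antxr1, a collagen-binding receptor, went from 624 and 1003 to 144 and 179 (-2.27), and Wfdc2, a secreted protein with a protease-inhibitor fold, from 536 and 512 to 123 and 153 (-1.90). Abcg1, a cholesterol exporter, fell from 1239 and 1039 to 286 and 440 (-1.67). Arhgef38, a guanine nucleotide exchange factor, fell by 2.03, Aqp8, a water channel, by 1.97, and Nags, an enzyme linked to the urea cycle, by 1.79. Tmem40, a membrane protein gene, fell by 1.78, Mmp14, a membrane-bound matrix protease, by 1.70 and Man2b2, a lysosomal mannosidase, by 1.66. Aqp8 varied most, at 131 and 306 in WT and 28.6 and 79.6 in Q418R, with a call kept in 1 of the 4 fits that left out a library. The calls of Arhgef38 and Mmp14 were lost whichever library was left out, and those of Abcg1, Tmem40 and Man2b2 were kept in 2 of those 4 fits. Wfdc2 kept its call in 1 of those 4 fits as well. It lay 1.83 below the mean of R342C and K365T (adjusted p = 0.00579), with log2 differences from WT of 0.16 in R342C and -0.31 in K365T.

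The machinery of pluripotency and of CTCF itself gave no call. None of the 18 naive genes (median 0.05), 15 general pluripotency genes (0.00), 25 genes of CTCF, cohesin and partners (0.03), 18 MEK and ERK targets (-0.08), 20 proliferation genes (-0.06) or 88 ribosomal protein genes (0.04) passed the threshold. Nanog, for example, stood at 18553 and 16330 in WT and 17905 and 17701 in Q418R, and Tfcp2l1, a naive factor downstream of LIF, at 41067 and 41697 against 45566 and 48296. Nanog overlapped between the lines, and Tfcp2l1 was higher in both Q418R libraries with an adjusted p of 0.823. Wapl, which releases cohesin from DNA, differed by 0.19 and Top2a by -0.01. At an unadjusted p under 0.05, limma gave 1 naive gene, 3 general pluripotency genes, 2 proliferation genes and 5 ribosomal protein genes as higher. It gave 1 ribosomal protein gene as lower. Of all genes tested, 18.2% passed at that level in either direction. The CTCF and cohesin list had 1 higher and 1 lower gene at that level, the MEK and ERK list 1 and 2. With other tools a few genes of these lists passed: DESeq2 on the recovered reads called 3 general pluripotency genes and 1 ribosomal protein gene higher, and edgeR 1 general pluripotency gene.

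Wnt targets lay above the other lists of signalling genes. Their median was 0.65 over 16 tested genes (0.56 on TPM), 10 of the 16 had both Q418R libraries above both WT libraries (25.2% over all genes), and 1 passed (2.02% were called higher over all genes): Apcdd1, a Wnt inhibitor, at 1090 and 1110 in WT and 1925 and 2011 in Q418R (0.84 ± 0.14, adjusted p = 0.00513). Apcdd1 also lay above the mean of R342C and K365T, by 0.79 (adjusted p = 0.00433). Of 14 LIF and STAT3 targets 1 rose, Il6st, the gp130 co-receptor of LIF, from 3364 and 3176 to 4383 and 4600 (0.46, adjusted p = 0.0499), which was lost whichever library was left out. Its excess over the other mutants was 0.58 (adjusted p = 0.00888). Of 11 tested protocadherin genes 2 rose (2.02% over all genes), Pcdhga1 from 13.2 and 18.4 to 52.4 and 50.8 and Pcdhga12 from 51.4 and 40.0 to 106 and 99.6. These genes share their last exons with the rest of their cluster, so that their reads may be divided uncertainly, and both calls were lost whichever library was left out.

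In each of the metabolic and stress lists 1 to 3 genes passed, where 4.6% of all genes did. Slc2a1, the glucose transporter GLUT1, fell by 0.49, and Hk2 and Tpi1, which act in glycolysis, fell by 0.55 and 0.47. These were 3 of 19 glycolysis genes, with a list median of -0.07, and Hk2 and Tpi1 lie in the chromosome 6 region. All 3 calls were lost on TPM (adjusted p = 0.274, 0.133 and 0.157) and whichever library was left out, and that of Slc2a1 also with edgeR (0.0634). Cyp51, an enzyme of cholesterol synthesis, was 1 of 20 in its list and fell by 0.77. It lies in the first 10 Mb of chromosome 5, where the median over 25 genes was -0.42. Phgdh, the entry enzyme of serine synthesis, rose by 0.79, Perp, a p53 target in cell adhesion, by 1.30, Ncam1, a neural adhesion molecule, by 1.02 and Arg2, the mitochondrial arginase, by 1.80. They were 1 of 19 stress, 1 of 20 p53, 1 of 6 neuroectoderm and 1 of 6 tested 2-cell-state genes. Arg2 passed the filter only through its Q418R libraries, at 4.67 and 1.08 in WT and 22.6 and 15.9 in Q418R. Perp, Ncam1 and Cyp51 missed the threshold on TPM (adjusted p = 0.0566, 0.093 and 0.0565), and Perp and Ncam1 lost their calls whichever library was left out. Phgdh and Arg2 kept theirs in 1 of the 4 fits that left out a library, and Cyp51 in 2.

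Of 13 protein-coding genes of the mitochondrial genome 1 rose (2.02% over all genes). It was mt-Co1, a cytochrome oxidase subunit, which went from 104580 and 109614 to 206840 and 230638 (1.03 ± 0.20, adjusted p = 0.0102). The list's median was 0.31, and 8 of the 13 had both Q418R libraries above both WT libraries, as had 25.2% of all genes. The call of mt-Co1 was lost whichever library was left out and on TPM. The share of all reads from mitochondrial genes was 2.66% and 2.86% in WT and 3.50% and 2.87% in Q418R, and the share of small structural RNAs 2.95% and 3.88% against 2.63% and 3.28%. Their part in the result was not tested. None of 13 endoderm genes, 6 fibroblast genes or 10 Xlr genes passed in limma, edgeR or DESeq2. At an unadjusted p under 0.05 limma gave 1 endoderm gene as lower, 1 fibroblast gene as higher and 1 as lower, and no Xlr gene. Of all genes tested, 18.2% passed at that level in either direction.

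**Figure D2:**
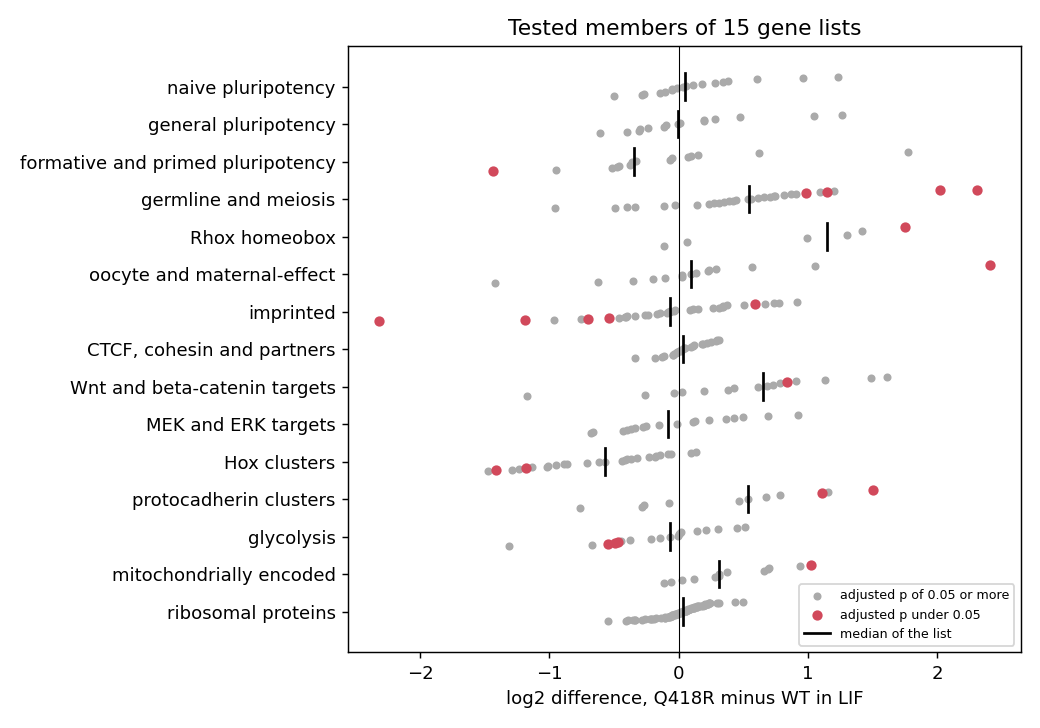
Log2 difference (Q418R minus WT in LIF) of every tested gene in 15 lists, red where the adjusted p was under 0.05, with a bar at the list's median. Germline genes (median 0.55) and Wnt targets (0.65) lie to the right of 0 and Hox genes (-0.57) to the left, with few members passing the threshold.

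The calls were not spread evenly along the genome. In 4 regions, found as runs of 10 Mb windows with a median at least 0.25 from that of all genes, genes moved in 1 direction: the distal end of chromosome 3 (140 to 160 Mb), proximal chromosome 5 (20 to 40 Mb), nearly all of chromosome 6 (10 to 150 Mb) and distal chromosome 17 (70 to 90 Mb). Medians are over genes with a mean of at least 100. The regions were chosen by these differences, so their values in LIF are a description. Outside them 517 of 15856 genes were called, 273 higher and 244 lower, with a median of -0.01. Chromosome 1, which the rule left outside, had a median of 0.17, with 34 higher and 6 lower genes among 1031 tested. Of the rises named above, Kif1a, Ddr2, Casp8 and Rnf2 lie on it.

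Proximal chromosome 5 held 58 lower and no higher genes among 214 tested, with a median of -0.52, a level of 0.697 times that of WT. Relative to the WT mean its median was -0.48 and -0.53 in the Q418R libraries and 0.04 and -0.04 in the WT libraries. Cad (chr5:31054780-31078479), the enzyme that starts pyrimidine synthesis, stood at 20570 and 22838 in WT and 12523 and 14505 in Q418R (-0.69). Ppp1cb, a catalytic subunit of protein phosphatase 1, and Mrfap1 fell by 0.42 and 0.64. The first 10 Mb of the chromosome had a median of -0.42 over 25 genes, but no neighbouring window held enough genes to join it.

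On chromosome 6, 139 genes were lower and 5 higher among 834 tested, and the median was -0.42, or 0.747 times WT. The shift was broad: the interquartile range of its 519 genes of mean 100 or more was -0.60 to -0.25, and 411 of them had both Q418R libraries below both WT libraries, as had 30.8% of all genes at that level. Slc2a3 (chr6:122727809-122801640), the glucose transporter GLUT3, fell from 59691 and 58018 to 33376 and 38201 (-0.72), and Serbp1, an RNA-binding protein of ribosomes, from 28062 and 26497 to 18839 and 17955 (-0.57). Both Q418R libraries had a region median of -0.42, and the first 10 Mb lay at 0.06.

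Distal chromosome 17 held 59 higher and no lower genes among 94, with a median of 0.95, or 1.94 times WT. Msh6 (chr17:87975062-87990892), which acts in DNA mismatch repair, went from 8559 and 7562 to 17775 and 19846 (1.22). Birc6, an inhibitor of cell death, rose by 1.00. The distal chromosome 3 region was smaller, with 7 higher and no lower genes among 65 and a median of 0.44, and there WT libraries differed as well, at -0.12 and 0.12 around their mean against 0.46 and 0.43 in Q418R. Its most abundant called genes were Pkn2, a protein kinase (0.53), Ankrd13c (0.74) and Sh3glb1, which bends autophagy membranes (0.71).

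**Figure D3:**
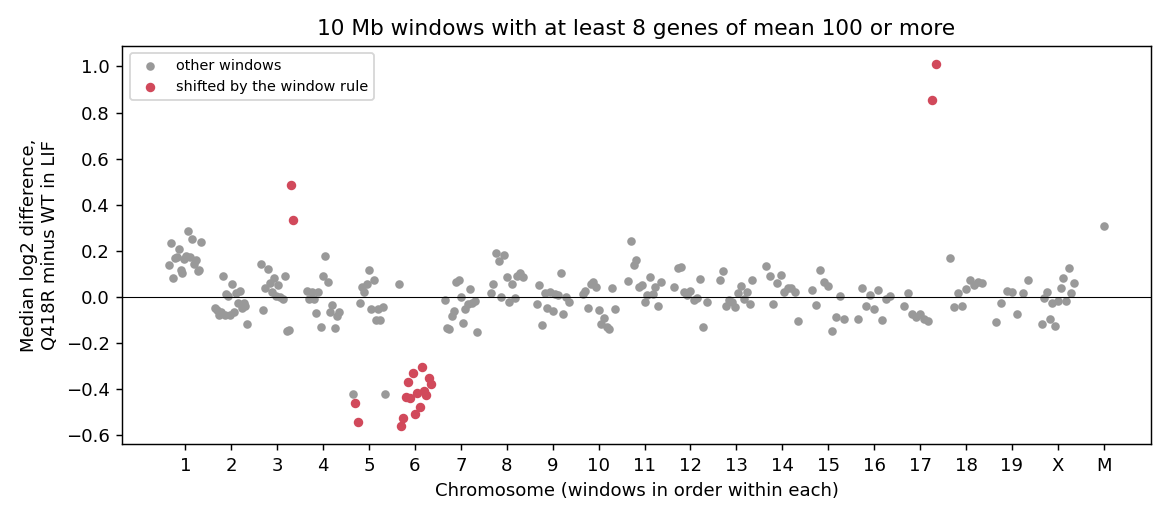
Median log2 difference (Q418R minus WT in LIF) per 10 Mb window, in order along each chromosome and for windows holding 8 or more genes with a mean of 100, red where the window belongs to a shifted region. The red windows lie below 0 on chromosome 6 (-0.56 to -0.30) and proximal chromosome 5 (-0.54 and -0.46) and above it on distal chromosome 17, and 2 windows of chromosome 5 outside the regions lie at -0.42.

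The regions differed in how far the other mutant lines shared them. Against the mean of R342C and K365T in LIF, where 665 genes (3.9%) were called, 1.46% higher and 2.44% lower, 57 of the 214 genes of the chromosome 5 region were lower and none higher, and on chromosome 6, 100 of 834 were lower and 5 higher. In the chromosome 17 region 3 of 94 genes and in the chromosome 3 region 1 of 65 differed in that test. Against R342C alone, the medians were -0.49 on chromosome 5 and -0.39 on chromosome 6, and 0.06 on chromosome 3 and -0.03 on chromosome 17. Against the same WT libraries, the chromosome 17 region had a median of 0.97 in R342C and 0.84 in K365T, and the chromosome 5 region -0.03 and -0.08. K365T lay between on chromosome 6, at -0.17, and from it Q418R differed by a median of -0.24. On chromosome 1 the Q418R median was 0.17 and that of K365T 0.46. The 665 calls fell to 84 without Q418R replicate 1, 94 without Q418R replicate 2, 225 without R342C replicate 2 and 334 without K365T replicate 1, while the regional medians of Q418R against WT kept their signs without any 1 of the 4 libraries.

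**Figure D4:**
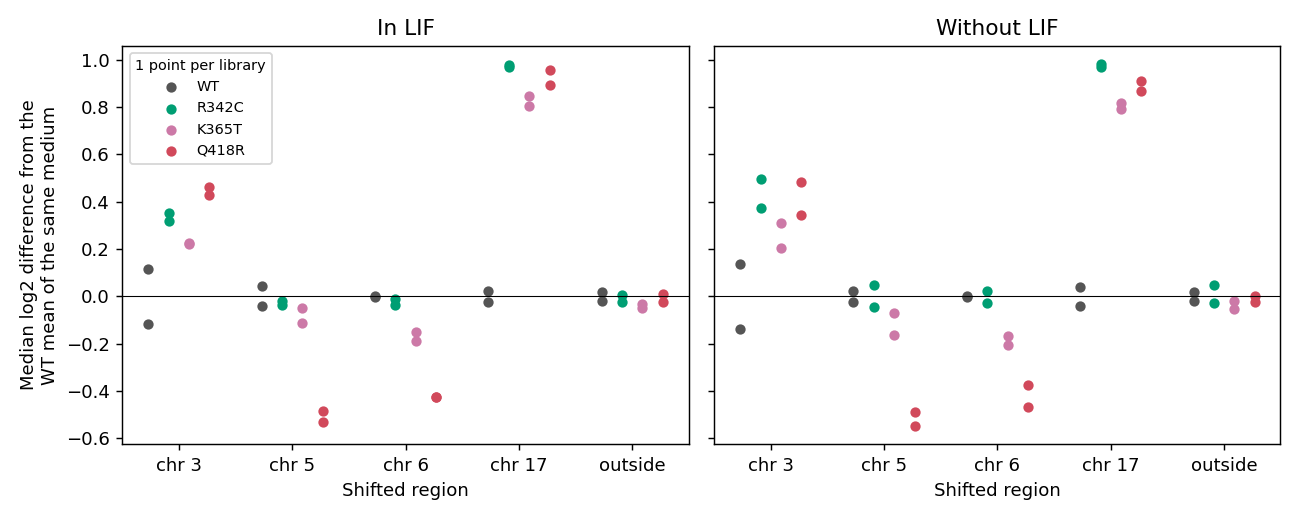
Median log2 difference from the WT mean of the same medium, 1 point per library, for the 4 shifted regions and for all other genes. The Q418R points stand apart on chromosomes 5 and 6 in both media (-0.37 to -0.55), while on chromosome 17 all 3 mutant lines lie between 0.79 and 0.98.

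The libraries without LIF share none with this comparison and show how much of it was repeated. There, 1012 genes (5.93%) differed between Q418R and WT, 2.77% higher and 3.16% lower. Of the 344 genes higher in LIF, 302 (87.8%) were again on the higher side and 132 were called higher. Of the 441 lower genes, 377 (85.5%) were again on the lower side, 160 were called lower and 4 were called higher. Over all genes tested 67.8% had the same sign in both media. The regional medians were almost the same without LIF, at 0.43, -0.51, -0.43 and 0.85 on chromosomes 3, 5, 6 and 17. Among lower genes of the chromosome 5 and 6 regions 194 of 197 kept their sign, and among higher genes of chromosome 17 59 of 59. Outside the regions it was 233 of 273 higher genes and 183 of 244 lower genes, with 73 and 39 called.

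Named genes differed in how far their change held in the other medium. Peg3 was at 7533 and 6416 in WT and 1825 and 1700 in Q418R without LIF (-1.98), Cpe at 58.4 and 39.3 against 421 and 450 (3.08), and Tex15 differed by 1.71. Epdr1 differed by 1.97. In contrast, Brdt was at 84.2 and 147 in WT and 129 and 119 in Q418R (0.15), and Gad1 at 23.9 and 41.5 against 29.7 and 23.4 (-0.23). Both overlapped between the lines there, although the change of their difference with the medium missed the threshold (adjusted p = 0.0925 and 0.135).

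The difference between the lines changed with the medium at 25 genes, 0.147% of those tested (interaction, limma). Otx2 turned over: without LIF it was at 412 and 383 in WT and 1176 and 1381 in Q418R, above WT by 1.67 (adjusted p = 0.0069), and the change of the difference was 3.11 ± 0.44 (adjusted p = 0.0382). Mmp2 and Fam111a, among the largest rises in LIF, differed by 0.35 and 0.41 without LIF. Nr5a2, a nuclear receptor of the naive network, did not pass in LIF (3356 and 2941 in WT, 3275 and 2970 in Q418R) and without LIF was at 89.0 and 70.7 in WT and 496 and 305 in Q418R (2.24). Zbtb39, a zinc finger gene, rose in both, by 1.19 and by 2.74. The interaction count was 0 in 5 of the 8 fits that left out 1 library, those without either LIF library of Q418R, without WT in LIF replicate 2, without Q418R in no LIF replicate 1 and without WT in no LIF replicate 2. It was 1 without WT in LIF replicate 1, 3 without Q418R in no LIF replicate 2 and 40 without WT in no LIF replicate 1.

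**Figure D5:**
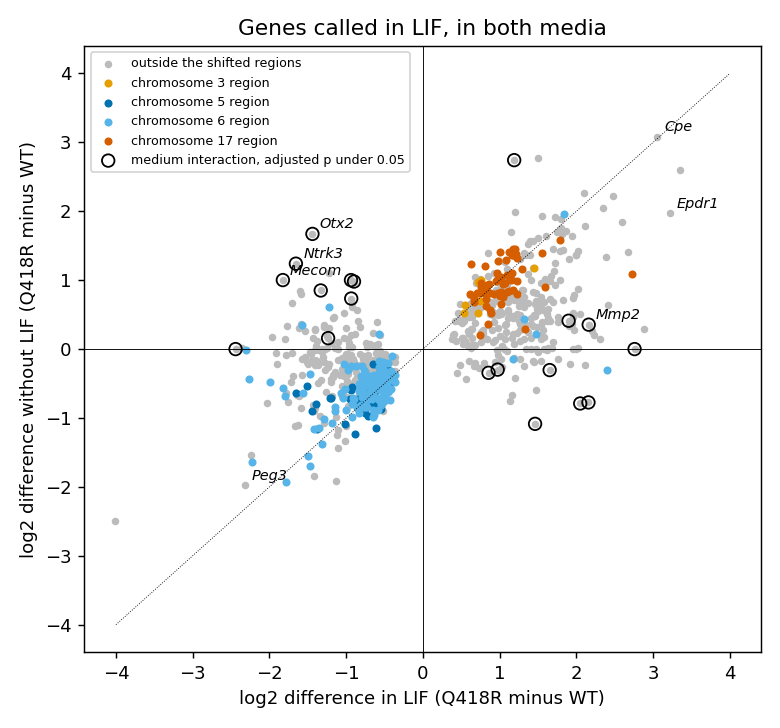
Log2 difference between Q418R and WT in LIF (horizontal) and without LIF (vertical) for the genes called in LIF, coloured by region, with a ring where the difference changed with the medium (adjusted p under 0.05). Genes of the regions lie near the dotted line of equal differences, Cpe (3.05 and 3.08) and Peg3 (-2.32 and -1.98) keep theirs, and Otx2 (-1.44 and 1.67) changes sign.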

How the data were processed

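Total RNA, depleted of ribosomal RNA and prepared as stranded libraries per the labels' protocols, was measured in 16 libraries, 2 for each of 4 lines in 2 media. The submitters' processing notes name Trim Galore, STAR, DESeq2 and the build mm10, while versions, counting tool and annotation are not given in the sources used here. The authors deposited normalised counts (a signal, each library divided by its own factor) and TPM values, used as an alternative. Per the file headers each of the 16 libraries has 1 column in both tables. Gene positions are from GENCODE M21 (GRCm38, the sequence of mm10) and 97.8% of tested genes had 1 position.

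A pseudocount of 4 was added to the normalised counts, and their log2 values went into limma 3.58.1 (R 4.3.3) over all 16 libraries, with 8 group means, 8 residual degrees of freedom and a variance trend, and p was adjusted by Benjamini-Hochberg over the 17063 genes with a mean of at least 10 in the 4 libraries compared (32031 had a value above 0). The log2 differences understate changes of low genes. TPM took a pseudocount of 0.5. Read numbers are the deposited values divided by the value of 1 read in each library, and 100% came out whole within 0.05. For Q418R in LIF replicate 2 that value is 0.996, so close to 1 that whole multiples are weaker evidence of reads there, and recovered reads entered tests only as alternatives. On recovered reads edgeR 4.0.16 called 700 genes and DESeq2 1.42.0 called 1188. A shifted region is a run of 10 Mb windows, each holding 8 or more genes with a mean of 100 and a median at least 0.25 from that of all genes. Named are Ctcf, the 15 largest rises and called falls that averaged at least 100 without overlap, leaving out clone names, up to 4 called members of each of 28 lists by size or else the 2 most abundant, and the 3 most abundant called genes of each region. Genes of the medium interaction and the Peg3 neighbours were added after their values were seen, and 2 genes the rule picks are not reported here. Members and lists were chosen with earlier results of these data known. The fit was run on simulated counts with changes of at least 2-fold in genes that averaged at least 100 in WT, without regional shifts. That run could not show how the fit does on smaller changes, on changes of lower genes or on regional shifts.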

Additional observations from a re-analysis of the deposited data

Results flagged for a closer look

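At 25 genes the difference between Q418R and WT changed with the medium, by the interaction test in limma (adjusted p under 0.05). Values are the log2 difference without LIF minus that in LIF. The difference turned from negative in LIF to positive without it in Otx2 3.11, Mecom 2.83 (-1.82 in LIF and 1.00 without) and Ntrk3 2.89 (-1.65 and 1.24). Mecom missed the threshold without LIF (limma, adjusted p = 0.101). Ntrk3 was low without LIF, at 1.91 and 6.73 normalised counts in WT and 15.4 and 14.3 in Q418R. Cemip, which acts in hyaluronan breakdown, changed by 3.27, although its difference in LIF (-0.93) missed the threshold. It had 3 reads in WT and 46 in Q418R without LIF, a ratio of 15.7 whose 95% exact interval, 5.04 to 78.9, covers counting error only. Further genes that were lower in LIF and not lower without it were Tmem28 2.18, Dpysl3 1.94, a cytoskeletal protein of neurons, Ccnjl 1.88, Greb1 1.67 and Slc30a2 1.39, a zinc transporter. Of these, Dpysl3 and Ccnjl were called higher without LIF, by 1.00 (limma, adjusted p = 0.0137) and 0.98 (adjusted p = 0.0177). Trp53i11 changed by 1.95, although its difference in LIF (-0.60) missed the threshold.

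Genes that were close to WT in LIF and differed without it were Zbtb16 2.29, Nr5a2 2.25, Mcf2 1.16 and Gstp1 -1.28. Gstp1, a glutathione transferase, was at 1270 and 1044 in WT and 1207 and 1083 in Q418R in LIF, and at 3302 and 3743 against 1331 and 1543 without it. Zbtb39 was higher in Q418R in both media and more so without LIF, with a change of 1.55.

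Genes that were higher in LIF and less so or lower without it were Abcc2 -2.93, an organic anion exporter, Myl4 -2.84, a myosin light chain, Dusp26 -2.55, Slc1a3 -1.96, a glutamate transporter, Mmp2 -1.81, Fam111a -1.49, Cgn -1.27, a tight junction protein, and Uchl1 -1.20, a ubiquitin hydrolase of neurons. Bpifb1 -2.76 and Tpsg1 2.44 had 0 reads in both lines without LIF, so that their changes restate the difference in LIF. Bpifb1 and Dusp26 passed the filter only through their Q418R libraries in LIF.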

How the results depend on the processing

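Leaving out 1 library moved the 785 calls to 166 to 254, those outside the shifted regions to 98 to 164, the interaction calls to 0 to 40 and the calls against R342C and K365T to 84 to 576. The lone library of a group is then assumed to vary like the others. With the 4 libraries alone 1356 genes were called (974 outside the regions), with the 8 LIF libraries 1421 (1005), with DESeq2 1188 (838) and on TPM 354 (243). The interaction count was 4 on TPM, 4 with a mean of at least 50 and 10 with a pseudocount of 1. The labels give same-numbered libraries nothing in common but the number, and whether the numbers pair libraries was not settled: same-numbered deviations correlated at 0.258 between the 2 LIF groups and above 0.1 in 13 of 28 pairs of groups. With a replicate block 821 genes were called, 549 outside the regions, 697 against the other mutants and 8 in the interaction. A replicate block with the 4 libraries alone, added after seeing the data, called 3942 genes (3279 outside). With wider regions, likewise added, 503 calls remained outside.

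Regional medians without 1 library ranged from 0.30 to 0.58 on chromosome 3, -0.54 to -0.46 on chromosome 5, -0.43 to -0.42 on chromosome 6 and 0.87 to 0.96 on chromosome 17. They were -0.43 and -0.34 on chromosomes 5 and 6 on TPM, and -0.47, -0.40 and 0.87 on chromosomes 5, 6 and 17 over genes of mean at least 10.

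Signs turned at genes that had not passed the threshold in LIF. On TPM Top2a was at 0.065, Gstp1 at 0.067, Nr5a2 at 0.066 and Lama1 at 0.0028, with edgeR Top2a at 0.015, Gstp1 at 0.013 and Nr5a2 at 0.017, and with upper-quartile scaling the same 3 at 0.012, 0.014 and 0.014. Without 1 library the ranges were -0.079 to 0.055 for Top2a, -0.15 to 0.13 for Gstp1, -0.11 to 0.084 for Nr5a2, -0.38 to 0.11 for Zbtb16, -0.34 to 0.20 for Lama1, -0.060 to 0.12 for Nanog and -0.14 to 0.57 for Vim. Of 103 genes followed, 43 to 46 lost their call when 1 library was left out, 27 on TPM, 17 without a filter and 12 with a pseudocount of 1, with the sign kept in each. The 103 genes include some, such as Ctcf and Nanog, that were not called and so had no call to lose. Among the called genes alone the lost share is therefore larger. Depth limits low genes such as Rhox2a and Hoxd4, at under 40 normalised counts in all 4 libraries.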
